A study of Drosophila melanogaster with 3 samples.

Results

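The Cpr and Tweedle (Twdl) genes of Drosophila melanogaster encode structural proteins of the cuticle, and they are described here through the peaks of the transcription factor Ets21C in whole white prepupae. The members were all protein-coding genes of the Ensembl BDGP6 annotation whose name starts with Cpr followed by a digit, or with Twdl. There were 95 of them, 70 Cpr and 25 Twdl genes, among 13945 protein-coding genes on the main chromosome arms. The other 13850 protein-coding genes served as the background. Of the 95 members, 65 had the transcription start site (TSS) of another member within 10 kb and are called clustered, and the other 30 are called single.

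Insect cuticle is built outside the epidermis from chitin fibres and proteins that bind them. Cpr proteins carry the Rebers and Riddiford (RR) consensus, a chitin-binding stretch, and Tweedle proteins form a second family, in which dominant mutations of TwdlD make larvae and pupae short and squat. At the white prepupal stage the larval cuticle has just become the puparium, and under the control of ecdysone pulses the epidermis goes on to lay down the pupal cuticle. Ets21C is an ETS-family activator best known from stress, regeneration and Jun kinase signalling.

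Chromatin was immunoprecipitated with an antibody against GFP and sequenced (ChIP-seq) in 3 biological replicates, all of 1 group. The animals were whole prepupae, male and female pooled, of the strain d.ets6-GFP, a transgenic line that stably expresses Ets21C with GFP at its C terminus, written Ets21C-eGFP. The labels do not say which promoter drives the tagged protein or whether the untagged protein is also present. No untagged or input library was analysed here, and the labels give a fragment size of 200 to 800 bp after sonication.

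The optimal list, kept by the authors for reproducibility across replicates, held 4505 peaks, which are all contained in a pooled list of 27085 peaks. Optimal peaks near members had the same rank by signal in both lists, down to rank 4293. The 4505 highest pooled peaks also gave the same shares of genes as the optimal list. By these values the optimal list was the upper part of the pooled list by signal. The 3 replicate lists held 30000, 28006 and 30000 peaks, and the 4505 of highest signal in each are called its top list. The pooled and whole replicate lists are labelled as peaks and background, so their weak calls are a mix. Replicate 1 stood apart: its top list had a summit within 500 bp of a TSS at 8.74% of the other coding genes, against 17.5% in replicate 2 and 18.7% in replicate 3. The read depth of the replicates is unknown from peak lists.

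None of the 95 Cpr and Twdl genes had an optimal summit within 500 bp of a TSS, the window called the promoter here. A count of 0 in 95 allows a share of up to 3.16%, and the exact 95% interval ran up to 3.81%. Both limits treat genes as independent, which the 65 clustered members are not, so they may be too narrow. The same holds for the limits and intervals on members given below. Among the other coding genes 2118 had one, which is 15.3%. In whole animals, binding in few cells and weak binding in many cells cannot be told apart. Within 5 kb of a TSS, 17 members had an optimal summit, or 17.9% (exact 95% interval 10.8 to 27.1%), against 35.4% of the other coding genes. The members thus lay below the background at both distances.

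The promoters of the 6 members whose sequence bears most on these results are printed from the Release 6 genome of RefSeq, as the 250 bases before the Ensembl canonical TSS, 5′ to 3′ on the strand of the gene. Cpr72Eb (chr3L:16364649-16364898, plus strand) has the optimal summit closest to any member, Cpr78Cb (chr3L:21294242-21294491, plus strand) is the one member with a top-list promoter peak, and Cpr12A (chrX:13543393-13543642, plus strand) has the next-highest pooled promoter peak. TwdlB (chr3R:26623544-26623793, minus strand) lies in the largest cluster, and Cpr65Ax1 (chr3L:6147988-6148237, minus strand) and Cpr65Ax2 (chr3L:6150858-6151107, minus strand) are near-identical copies. The top-list peak of Cpr78Cb is nearest to its other annotated TSS, downstream of the printed stretch. Capitals mark each TATAAA, the core of the TATA box.
Cpr72Eb: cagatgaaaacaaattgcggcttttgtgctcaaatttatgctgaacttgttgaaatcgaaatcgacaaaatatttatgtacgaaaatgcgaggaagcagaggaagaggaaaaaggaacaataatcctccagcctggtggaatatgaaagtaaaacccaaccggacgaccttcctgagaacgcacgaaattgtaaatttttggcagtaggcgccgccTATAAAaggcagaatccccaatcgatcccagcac
Cpr78Cb: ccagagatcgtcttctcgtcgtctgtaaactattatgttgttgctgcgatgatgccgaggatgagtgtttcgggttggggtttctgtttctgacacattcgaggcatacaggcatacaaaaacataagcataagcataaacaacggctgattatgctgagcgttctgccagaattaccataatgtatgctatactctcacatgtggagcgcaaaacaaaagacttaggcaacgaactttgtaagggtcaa
Cpr12A: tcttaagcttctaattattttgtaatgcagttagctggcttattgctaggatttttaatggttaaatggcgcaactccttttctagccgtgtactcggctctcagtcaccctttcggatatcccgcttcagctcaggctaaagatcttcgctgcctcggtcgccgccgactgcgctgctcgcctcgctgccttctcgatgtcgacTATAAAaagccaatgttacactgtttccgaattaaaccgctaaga
TwdlB: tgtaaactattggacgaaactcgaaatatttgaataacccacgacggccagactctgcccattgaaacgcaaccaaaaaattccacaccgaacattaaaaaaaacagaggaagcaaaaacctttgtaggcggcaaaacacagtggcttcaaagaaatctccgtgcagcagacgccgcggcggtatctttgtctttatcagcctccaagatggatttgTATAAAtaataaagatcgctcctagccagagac
Cpr65Ax1: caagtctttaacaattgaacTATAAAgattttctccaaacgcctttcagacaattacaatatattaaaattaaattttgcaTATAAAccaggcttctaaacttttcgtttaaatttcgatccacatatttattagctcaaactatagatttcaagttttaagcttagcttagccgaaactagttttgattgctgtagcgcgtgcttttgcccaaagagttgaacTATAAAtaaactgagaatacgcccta
Cpr65Ax2: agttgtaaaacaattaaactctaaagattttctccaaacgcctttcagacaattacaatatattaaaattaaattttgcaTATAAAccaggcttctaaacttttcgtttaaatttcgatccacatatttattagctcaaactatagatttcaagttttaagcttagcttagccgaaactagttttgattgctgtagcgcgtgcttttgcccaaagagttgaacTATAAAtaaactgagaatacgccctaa

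The word TATAAA starts 34 bases before the TSS in Cpr72Eb, 33 in TwdlB, 26 in Cpr65Ax1, 27 in Cpr65Ax2 and 45 in Cpr12A, counting the copy nearest to the TSS. The printed stretch of Cpr78Cb holds none. Over all members this word was common at the position of a TATA box. On the strand of the gene and wholly between 40 and 16 bases before the TSS, a window chosen after the sequences had been seen, it occurred in 52 of 95 members (54.7%), against 7.55% of the other coding genes and 2.60% of those other genes that had an optimal promoter peak. The share was 52.9% in Cpr and 60% in Twdl genes.

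The members shared other features that the choice by name did not use. Their median GC content from 250 bases before to 50 after the TSS was 46.0% (range 31.7 to 56.3%), against 38% for the other coding genes and 37.7% for the other genes with an optimal promoter peak. A single annotated TSS was found for 87 members (91.6%), against 73.4% of the other coding genes. Median gene length was 1088 bp in members and 2177 bp in the others, and median coding length was 642 bp in members and 1182 bp in the others. They are thus compact genes with few alternative starts.

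Of 6 further words searched on both strands of the same 300 bases, 3 were absent from all members. These were GGTCACACT, known as the M1BP motif (5.91% of other coding genes), the ETS core word CCGGAAG (1.09%) and the FTZ-F1 word CAAGGTCA (0.505%). A count of 0 in 95 allows up to 3.16%, so the absence of the ETS and FTZ-F1 words could not be told from the background. The ETS word was also rare, at 0.567%, in other genes with an optimal promoter peak. TATCGATA, the DRE word of many housekeeping promoters, was found in 1 member (1.05%), against 9.0% of the others. The word GATAAG was found in 6 members (6.32%), against 19.0%, and GAGAG, bound by GAGA factor, in 33 members (34.7%), against 30.2%. TATAAA at any place in the 300 bases, on either strand, was found in 72 members (75.8%), against 45.1%. These matches describe letters in a window and not bound sites, and the words were not searched for overlap with each other.

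Because TATA-bearing genes carried few peaks in general, the shares were also taken within such genes. Of the 52 members with the TATA word at its usual position 0 had an optimal promoter peak, which allows up to 5.77%, and 55 of 1045 other such genes had one (5.26%). At that number of members a difference was not detectable. Of the 43 members without the word 0 had a peak, which allows up to 6.98%, against 16.1% of 12805 other genes. Within 5 kb, 10 of the TATA-bearing members (19.2%) had an optimal summit, against 19.6% of other TATA-bearing genes. For members without the word it was 7 (16.3%), against 36.6%. So the lower share of members within 5 kb was seen without the word and not with it. The difference between these 2 sets was not tested, and the part of promoter type in the result was not tested.

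With other shared features the background at promoters was lower than 15.3%. Of the 87 members with 1 TSS, 0 had an optimal promoter peak, which allows up to 3.45%, against 10.9% of other coding genes with 1 TSS. Of the 48 members with a promoter GC content at or above the median of the members, 0 had one, which allows up to 6.25%, against 11.5% of other coding genes in that range. Of the 71 members no longer than the upper quartile of the members, 0 had one, which allows up to 4.23%, against 9.43% of other genes of that length. With both 1 TSS and the TATA word there were 49 members, 0 with an optimal promoter peak, which allows up to 6.12%, against 3.18% of 912 other such genes, so no gap was detectable there. Within 5 kb, 9 of these 49 (18.4%) had an optimal summit, against 16.1% of the others. The part of these features in the result was not tested.

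Each replicate showed the same side at promoters. In the top lists, promoter summits were found at 1 member in replicate 1 (1.05%, background 8.74%), at 0 in replicate 2 (background 17.5%) and at 0 in replicate 3 (background 18.7%). The share of members minus that of other coding genes was -7.68, -17.5 and -18.7 percentage points in replicates 1 to 3, with a mean of -14.7 ± 6.06 points (SD, n = 3). The exact two-sided sign-flip permutation test gave p = 0.25, the smallest that 3 replicates allow. With the optimal list restricted to peaks shared by the top lists of the remaining 2 replicates, the members' count of 0 could not change, and the background was 10.9% without replicate 1, 5.98% without replicate 2 and 6.53% without replicate 3.

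Within 5 kb the replicates differed. A top-list summit was found near 25 members in replicate 1 (26.3%, background 24.8%), 16 in replicate 2 (16.8%, background 38.6%) and 12 in replicate 3 (12.6%, background 40.3%). The differences were 1.55, -21.8 and -27.6 points, with a mean of -15.96 ± 15.4 (SD, n = 3; exact two-sided sign-flip permutation p = 0.50). Replicate 1 thus had the opposite sign to the other two. Leaving out replicate 3 brought the share of members near an optimal peak to 14.7%, against 17.6% of the others, and leaving out replicate 2 to 8.42%, against 16.6%. Without replicate 1 it was 9.47%, against 27.4%.

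**Figure D1:**
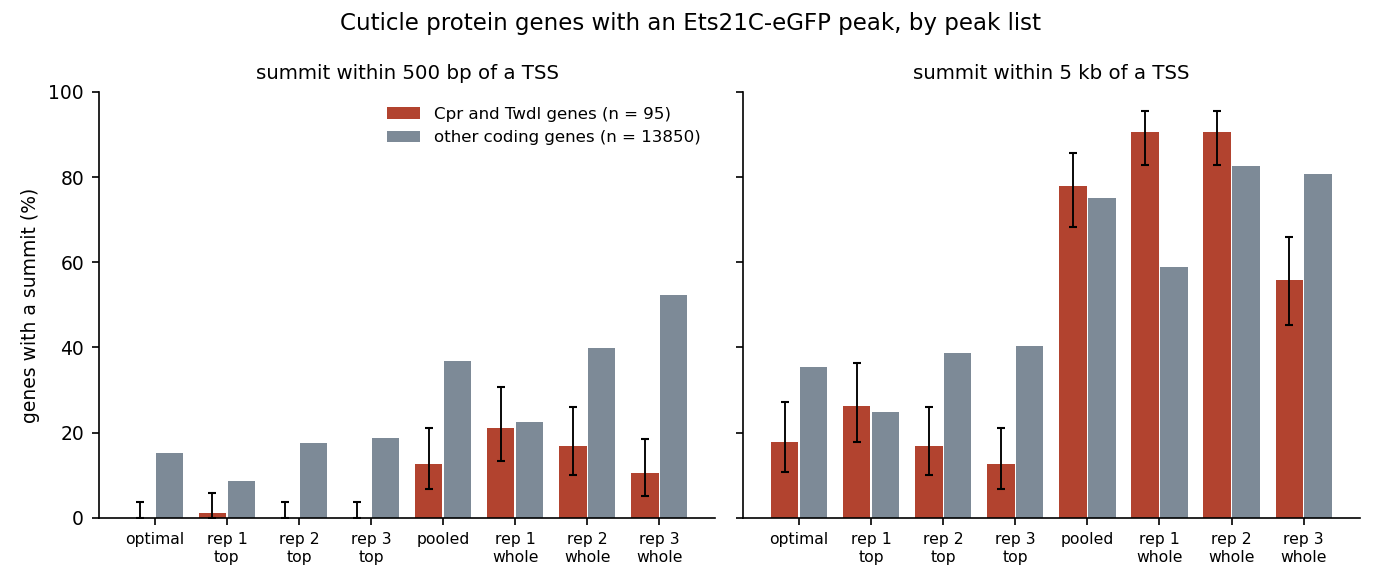
Percentage of genes with a peak summit within 500 bp (left) and within 5 kb (right) of a TSS, for the optimal, pooled, top and whole replicate lists, with the members' bars left of those of the 13850 other coding genes and exact 95% intervals (counting error only) on the members. At 500 bp the members' bar is the lower of each pair, at 0 for the optimal list and for the top lists of replicates 2 and 3, while at 5 kb the whole lists of replicates 1 and 2 put the members higher, at 90.5% each.

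The single promoter call in any top list was at Cpr78Cb. Its peak had a signal of 25.9 and was the 4181st highest in replicate 1. The summit lay 391 bp upstream of the more downstream of the 2 annotated TSS of the gene. It therefore lay downstream of the canonical TSS, whose promoter is printed above. The whole lists of the other replicates also had a summit there, of signal 18.1 at rank 12397 in replicate 2 and 12.9 at rank 26516 in replicate 3. Relative to the median signal of the top list of the same replicate these heights were 0.639, 0.288 and 0.141 in replicates 1 to 3, so the peak was below the typical top-list peak in all. Cpr73D had the closest miss, with a promoter peak at rank 4539 of replicate 3, just below the top list.

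In the pooled list the picture was of weak peaks at few members. Promoter summits were found at 12 members (12.6%, exact 95% interval 6.70 to 21.0%), against 36.8% of other coding genes. Every one of the 12 was weak, meaning over 500 bp from any optimal summit, and the share of weak promoter peaks was 12.6% in members, against 24.0% in the others. Within 5 kb the pooled list reached 74 members (77.9%), against 75.2%, so at that distance the members were at the background. The 12 were Cpr78Cb (signal 60.1), Cpr12A (55.6), TwdlT (47.2), TwdlN (38.9), Cpr78E (38.5), TwdlB (37.8), Cpr47Ee (36.1), Cpr100A (32.8), TwdlG (30.7), TwdlE (30.3), Cpr49Ac (29.6) and Cpr51A (28.8). All are genes for structural cuticle proteins.

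These weak peaks stood low in the list. Cpr78Cb ranked 8560 of 27085 and Cpr51A ranked 27084, the next to last. Their median signal was 37.0, against 45.4 for the weak promoter peaks of other coding genes. Counted by peak, 0 of 4482 optimal summits on the main arms lay at a member promoter, which allows up to 0.0669%, and 12 of 22003 weak summits did (0.0545%, exact 95% interval 0.0282 to 0.0952%). Of the summits at any coding promoter, 0 of 1683 optimal ones were at a member, which allows up to 0.178% (exact 95% interval up to 0.219%), against 12 of 3621 weak ones (0.331%, exact 95% interval 0.171 to 0.578%). The member TSS were 104 of 19607 coding TSS, or 0.530%. Over all summits the limit for 0 lies above the weak share, and over promoter summits it lies below it, with intervals that overlap.

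The whole replicate lists gave the members 20 promoter hits in replicate 1 (21.1%, background 22.4%), 16 in replicate 2 (16.8%, background 39.8%) and 10 in replicate 3 (10.53%, background 52.3%). Few recurred. Of the members, 59 had a promoter summit in no whole list and 28 in 1, against 33.1% and 30.8% of the other coding genes. Those with a summit in 2 lists were Cpr100A, Cpr12A, Cpr73D, Cpr78E, TwdlB and TwdlG (6.32% of members, background 24.5%), and those in all 3 were Cpr49Ac and Cpr78Cb (2.11%, background 11.6%). Within 5 kb the whole lists covered 86 members in replicate 1 (90.5%, background 58.8%), 86 in replicate 2 (90.5%, background 82.7%) and 53 in replicate 3 (55.8%, background 80.7%). The sign of that difference changed between replicates (mean 4.88 ± 28.4 points, SD, n = 3; exact two-sided sign-flip permutation p = 0.75).

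The members entered the ranking late. With the 10000 highest pooled peaks kept, 2 members (2.11%) had a promoter summit, against 25.1% of the others, and with 20000 kept there were 7 (7.37%), against 33.0%. In replicate 1 the members came close to the others only in the lower part of the list, with 1.05% of members against 12.5% of the others at 10000 peaks and 14.7% against 17.6% at 20000. Replicate 3 kept a wide gap at 20000 peaks, with 4.21% of members against 47.1% of the others. The weak peaks of replicate 1 and those of replicate 3 were therefore spread differently over these genes.

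**Figure D2:**
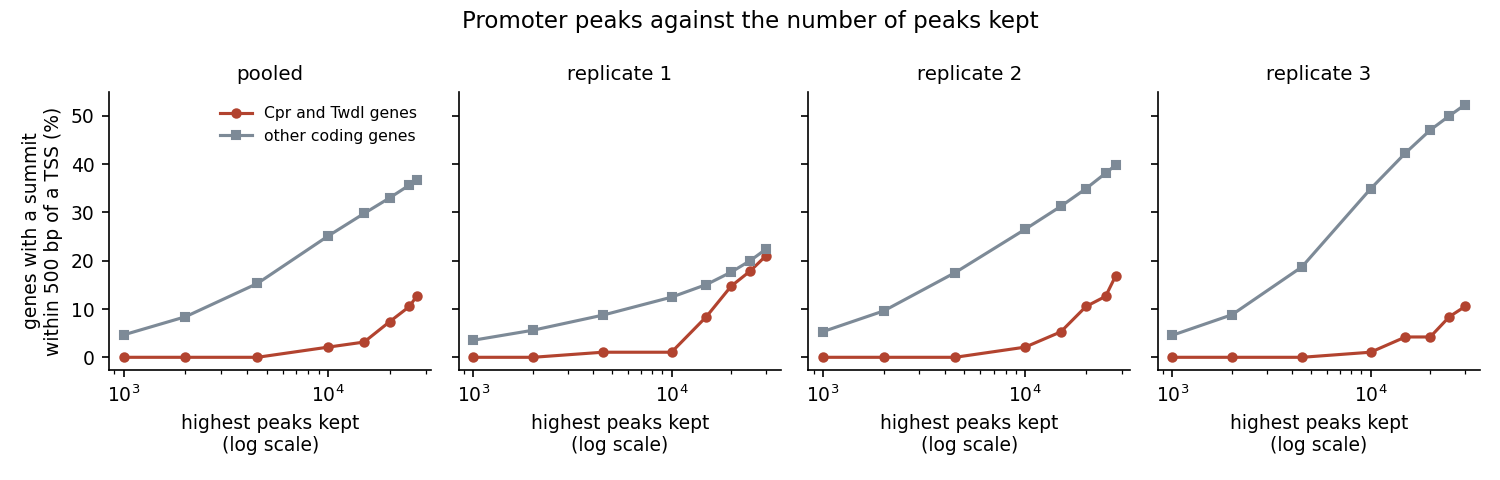
Percentage of genes with a summit within 500 bp of a TSS (vertical axis) as more of the highest peaks are kept (horizontal axis, log scale), for the pooled list and each replicate, with members as circles and the 13850 other coding genes as squares. Up to 4505 peaks the members stay at 0 in the pooled list and in replicates 2 and 3 and at 1.05% or below in replicate 1, and only replicate 1 brings them near the others, at 21.1% against 22.4%. Up to 4505 peaks the 0 in the pooled panel only repeats the result of the optimal list.

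The 17 members with an optimal summit within 5 kb shared 15 distinct summits. The sequences around the 3 highest are printed from the Release 6 genome of RefSeq, plus strand, with the summit base in capitals, because they are the strongest reproducible signal near any member. They are the peaks near Cpr78Cc (chr3L:21304507-21304607), near Cpr31A (chr2L:10057391-10057491) and upstream of Cpr72Eb (chr3L:16364320-16364420). None of the 7 words searched in the promoters occurs in these 101-base windows.
Summit near Cpr78Cc: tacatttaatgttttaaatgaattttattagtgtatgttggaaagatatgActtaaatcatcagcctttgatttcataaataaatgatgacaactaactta
Summit near Cpr31A: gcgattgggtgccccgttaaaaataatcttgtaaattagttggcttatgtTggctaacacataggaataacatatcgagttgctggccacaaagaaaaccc
Summit upstream of Cpr72Eb: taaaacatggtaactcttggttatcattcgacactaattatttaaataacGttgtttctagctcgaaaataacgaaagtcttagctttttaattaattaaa

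The first 2 of these lay much closer to another gene. The highest (3L:21304389-21304728) had a signal of 1148, the 89th of the optimal list, and its summit was 3977 bp downstream of the TSS of Cpr78Cc but 90 bp upstream of a TSS of CG11309, in an intron. Its heights relative to the top-list median were 3.57, 4.80 and 7.46 in replicates 1 to 3 (5.28 ± 1.99, SD, n = 3). The second (2L:10057295-10057568) had a signal of 835, the 174th, and lay 3228 bp downstream of the TSS of Cpr31A but 541 bp downstream of that of Pen, in an intron of this importin alpha gene. Its heights were 5.37, 4.01 and 4.08 (4.49 ± 0.769). Both stood above the median of every top list.

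The peak near Cpr72Eb is the clearest one that lay in a member cluster. It spans 3L:16364170-16364569, had a signal of 271 (rank 1387), and its summit was 529 bp upstream of the TSS of Cpr72Eb, just outside the promoter window. The same summit lay 1767 bp downstream of the TSS of Cpr72Ea and 2970 bp downstream of that of Cpr72Ec, and the nearest gene outside the family, CG4842, was 4019 bp away. Its heights were 1.67, 1.20 and 1.51 (1.46 ± 0.239, SD, n = 3). It was in the top list of every replicate, and a second optimal summit (signal 163) lay 1216 bp upstream of Cpr72Ea, found in replicates 2 and 3 at heights of 0.798 and 0.715.

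At 4 more single or clustered genes a member had the nearest coding TSS. Cpr62Ba had a summit of signal 184 in its own intron, counted as 798 bp upstream of its nearest TSS, with heights of 1.16, 0.758 and 0.969 (0.963 ± 0.201, SD, n = 3). Cpr51A had a summit of signal 225 at 3124 bp upstream, with heights of 1.22, 1.29 and 1.01 (1.17 ± 0.143). Cpr12A had 2 upstream summits, of signal 169 at 2234 bp and 150 at 4021 bp, neither in all 3 top lists. Cpr76Ba had one of signal 144 at 1576 bp downstream, which was also within 5 kb of Cpr76Bb and Cpr76Bc. Among these, the summits of Cpr62Ba and Cpr51A were in every top list.

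The other summits belonged by distance to other genes. Of the 15, a member had the nearest coding TSS for 7 and another gene for 8, and 6 of those 8 lay within 500 bp of the TSS of that other gene. Such was the case for Cpr66Cb (signal 197, 4005 bp away, 108 bp from CG7083), TwdlC (157, 4699 bp, 281 bp from CG31076), Cpr92A (150, 4286 bp, 134 bp from CG7342) and TwdlF (125, 3718 bp, 156 bp from CG34305). Counting each summit only for the coding gene with the nearest TSS left 6 members (6.32%), namely Cpr12A, Cpr51A, Cpr62Ba, Cpr72Ea, Cpr72Eb and Cpr76Ba, against 17.3% of the others. The lowest of the 15 was 1357 bp upstream of Cpr97Eb (signal 114). Of the 15 summits, 5 were in all 3 top lists, 9 in 2 and 1 in 1, none lay in an exon, and their median GC content over 101 bases was 32.7%, against 31.7% for all optimal summits.

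**Figure D3:**
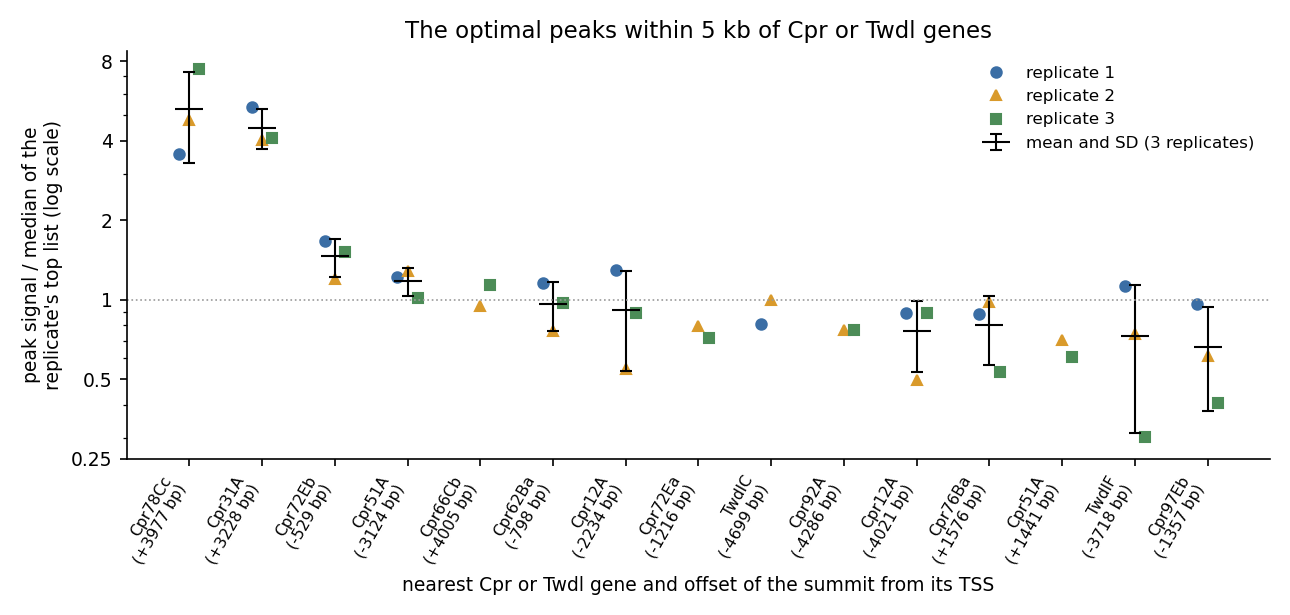
Height of the 15 optimal peaks within 5 kb of Cpr or Twdl genes, as signal divided by the median of the top list of the same replicate (vertical axis, log scale), for replicates 1 to 3, with mean and SD where all 3 replicates had the peak. Peaks run from highest to lowest pooled signal and are named by the nearest member and the offset of the summit from its TSS in bp; those near Cpr78Cc and Cpr31A reach 5.28 and 4.49 on average, and those from Cpr66Cb onward lie between 0.303 and 1.30 in single replicates.

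Distances to the nearest optimal summit were longer for members than for other genes. The median was 20 kb in members (quartiles 7.88 and 35.5 kb), against 9.39 kb in other coding genes (2.56 and 23.4 kb) and 10.8 kb in other genes with 1 TSS. The median was 18.2 kb in Cpr genes and 43.3 kb in Twdl genes. The Twdl value rests on 1 cluster of 12 genes: the 13 Twdl genes outside it had a median of 11.4 kb, and the 83 members outside it one of 16.001 kb. The members farthest away were TwdlL (88.7 kb), TwdlO (87.6 kb) and TwdlB (86.6 kb), all in 1 cluster. Just outside 5 kb were Cpr62Bb at 5424 bp and Cpr47Eg at 5757 bp, and just inside were TwdlC at 4699 bp and Cpr97Ea at 4709 bp. By family, 15 of 70 Cpr genes (21.4%) and 2 of 25 Twdl genes (8.00%) had a summit within 5 kb, at a background of 35.4%. By arm it was 9 of 35 on 3L (25.7%, other genes 36.6%), 5 of 24 on 3R (20.8%, other genes 36.2%) and 1 of 22 on 2R (4.55%, other genes 32.2%). It was 1 of 6 on 2L (16.7%, other genes 33.4%) and 1 of 8 on X (12.5%, other genes 39.4%).

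Clustered genes did not differ from single genes beyond the spread between replicates. An optimal summit lay within 5 kb of 11 of 65 clustered members (16.9%), against 6 of 30 single members (20%). In the top lists the clustered share was 27.7%, 16.9% and 9.23% in replicates 1 to 3, against 23.3%, 16.7% and 20% for single genes. The difference of clustered minus single genes was 4.36, 0.256 and -10.8 points, with a mean of -2.05 ± 7.82 (SD, n = 3; exact two-sided sign-flip permutation p = 1.0). Pooled promoter peaks were found at 6 of 65 clustered (9.23%) and 6 of 30 single members (20%). The median distance to an optimal summit was 24.3 kb in clustered and 15.99 kb in single members, and 18.4 kb in the 53 clustered members outside the largest Twdl cluster. Genes of 1 cluster share peaks, so they are not independent of each other.

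**Figure D4:**
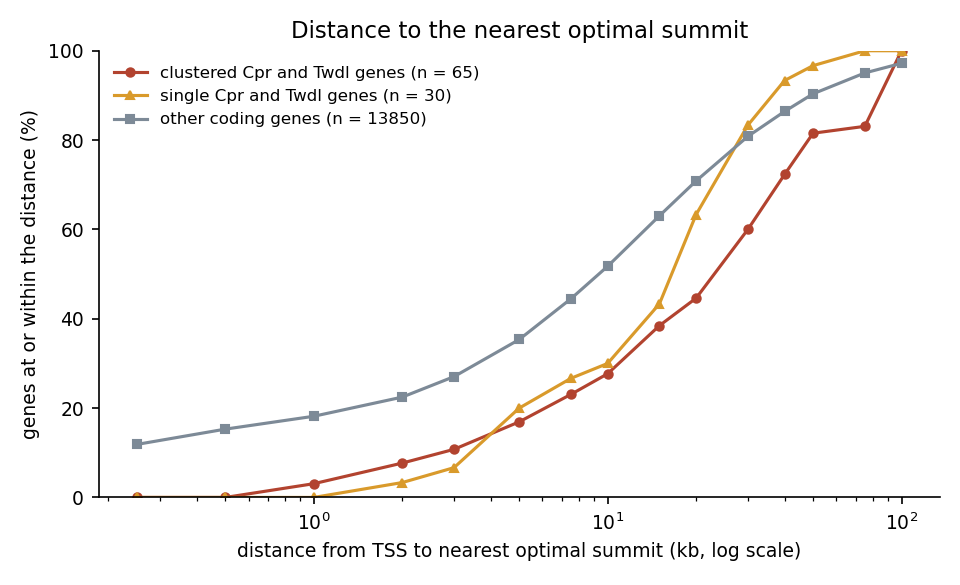
Percentage of genes (vertical axis) whose nearest optimal summit is at or within a given distance of a TSS (horizontal axis, kb, log scale), for 65 clustered members (circles), 30 single members (triangles) and 13850 other coding genes (squares). At 5 kb the values are 16.9%, 20% and 35.4%, and at 10 kb 27.7%, 30.0% and 51.8%; the clustered genes reach 83.1% at 75 kb because the largest Twdl cluster is farther away.

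The spans of members held few optimal summits. The 15 clusters of 2 or more members span 199.9 kb and held 2 optimal summits, one in the cluster of Cpr62Ba and one in that of Cpr72Eb, or 1.00 per 100 kb. The spans of single members held 1 optimal summit, or 1.06 per 100 kb, and the main arms as a whole held 3.35. That summit lay in Cpr51A, 260 bp from a TSS of CG30197. Counts of 2 and 1 are too few to compare clusters with single genes. The spans are also unlike, as clusters include the DNA between genes and single spans are gene bodies alone. In the top list of replicate 1 the clusters held 3.00 per 100 kb, against 1.00 in replicate 2 and in replicate 3. The 7 clusters of 4 or more members, with 42 members over 128.9 kb, held 0. For pooled summits the densities were closer, at 15 per 100 kb in clusters and 14.8 in single members, against 20.2 over the main arms.

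The 7 larger clusters differed in their surroundings. The 12 genes from TwdlM to TwdlD on 3R, which include TwdlD itself, span 21.9 kb with no other coding gene, lay 74.4 to 88.7 kb from any optimal summit, and held 2 pooled summits, at TwdlB and TwdlN. The 7 genes Cpr47Ea to Cpr47Eg on 2R held 8 pooled summits, and 3 summits of the top list of replicate 1, while the top lists of replicates 2 and 3 had 0 there. The 7 genes Cpr65Au to Cpr65Az on 3L share their span with 11 other coding genes, including Lcp larval cuticle protein genes, and held 4 pooled summits. The clusters Cpr49Aa to Cpr49Ad and Cpr49Ae to Cpr49Ah on 2R held 4 and 3. The 4 genes Cpr64Aa to Cpr64Ad on 3L held 0 pooled summits. The 4 genes TwdlX to Twdlalpha on X also held 0, and TwdlX lay 7.77 kb from an optimal one.

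**Figure D5:**
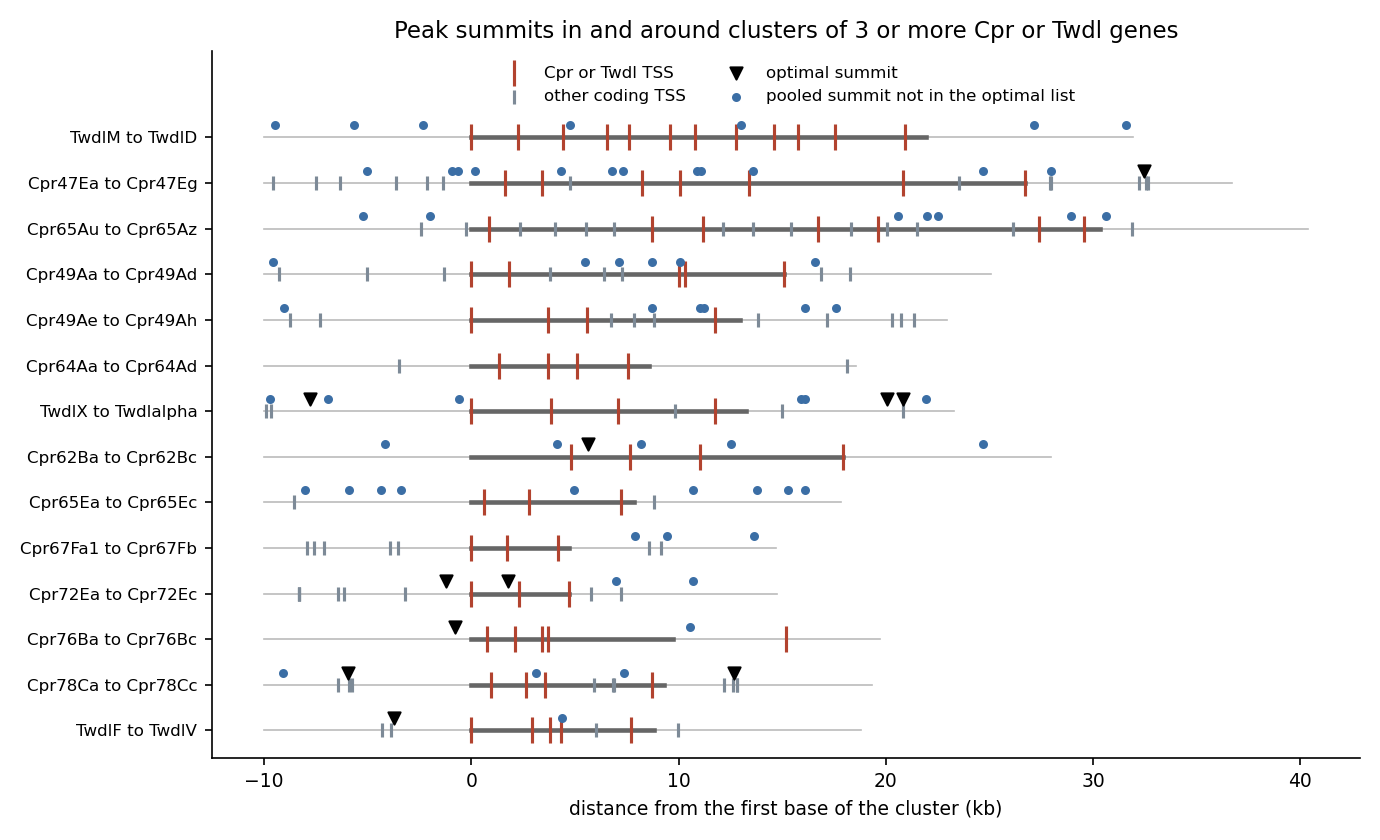
Peak summits in and around the 14 clusters of 3 or more members, drawn to scale with distance from the first base of each cluster (kb, horizontal axis), with 10 kb on either side. Long red ticks are TSS of Cpr or Twdl genes, short grey ticks TSS of other coding genes, triangles optimal summits and dots pooled summits not in the optimal list; within the 7 clusters of 4 or more members there is no triangle.

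Repeated sequence touched few members. For 6 members, under 90% of the 32-base words within 500 bp of the TSS occurred once on the main arms: Cpr65Ax1 (23.7%), Cpr65Ax2 (27.9%), TwdlL (83.4%), TwdlK (83.7%), TwdlJ (85.1%) and TwdlM (89.6%). Short reads from Cpr65Ax1 and Cpr65Ax2 cannot be told apart over most of that stretch, since their promoters were 97.3% identical over 300 bases. Only pairs of members in the same cluster were aligned. The next most alike pair, Cpr67Fa1 and Cpr67Fa2, was 68.3% identical, and the median of the 154 pairs was 50.7%. Mismatches were not penalised and no unrelated promoters were aligned beside them, so the median does not show likeness. None of the 6 had a pooled promoter peak, which allows up to 50%, against 11.8% of 574 other coding genes with such repeated sequence. At 6 members a difference was not detectable.

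The genes around the same pathway were read in the same way. Of 31 other RR-family and cuticle protein genes outside the Cpr and Twdl names, 0 had an optimal promoter peak, which allows up to 9.68%, and 2 had a summit within 5 kb (6.45%, background 35.4%). Weak promoter peaks were found at 9 of them (29.0%, background 24.0%). Acp1 and Acp65Aa, which encode adult cuticle proteins, lay 37.8 and 32.4 kb from an optimal summit. Tb, a Tweedle gene (the Tubby marker) whose name falls outside the rule, lay 57.9 kb from one. Of 21 matched tanning and pigment genes, 0 had an optimal promoter peak, which allows up to 14.3%, and 1, yellow-e3, had a summit within 5 kb (4.76%, background 35.4%). Weak promoter peaks were found at 7 of them (33.3%, background 24.0%). The distance to the nearest optimal summit was 14.2 kb for b, which encodes aspartate decarboxylase, and 13.3 kb for Ddc, dopa decarboxylase. Both lists were without optimal promoter peaks, at a background of 15.3%. For the tanning genes the limit of 14.3% is close to that background. Exact 95% intervals run higher than such limits, as for the members (3.81% against 3.16%). The absence at 21 tanning genes could thus not be told from the background. The weak shares of both lists rest on 9 and 7 genes, too few to set apart from the background. Over all pooled promoter peaks the shares were also 29.0% and 33.3%, below the background of 36.8%, as was that of the members (12.6%).

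Promoter peaks were no more common at genes that make and remodel chitin than in the background, while many regulators of the cuticle programme had them. Of 32 chitin genes, 3 had one (9.38%) and 11 had a summit within 5 kb (34.4%), against 15.3% and 35.4% of the other coding genes. The 3 with a promoter peak were Cht7, a chitinase gene (signal 162, heights 0.949, 0.836 and 0.806 in replicates 1 to 3), mmy, which encodes UDP-N-acetylglucosamine pyrophosphorylase (158), and rtv, needed for chitin organisation (132). The peaks at mmy (1.12 and 0.742) and rtv (0.685 and 0.603) were found in replicates 2 and 3 only, that at rtv in 1 top list. The chitin deacetylase genes Cda4 and Cda5 had none. The list of 15 factors known to time or drive cuticle genes was chosen with earlier results of these data known. Of these factors, 7 had an optimal promoter peak (46.7%) and 11 had a summit within 5 kb (73.3%). The highest were at the nuclear receptor genes Hr3 (signal 633) and Eip75B (481), at grh, which encodes the epidermal factor Grainyhead (309), and at usp, which encodes the partner of the ecdysone receptor (287). Hr3 had heights of 4.24, 3.76 and 2.40 in replicates 1 to 3 (3.47 ± 0.958, SD, n = 3). The peaks at Eip75B (1.65 and 3.42) and usp (1.43 and 1.50) were found in replicates 2 and 3 only. Of the regulators without one, Blimp-1 had an optimal summit 676 bp from a TSS and br none nearer than 46.7 kb. These genes had 1 to 9 TSS each, with 9 in br and 1 in ken. Of other coding genes with 2 or more TSS, 27.4% had an optimal promoter peak and 49.1% had a summit within 5 kb. Both are above the background over all other coding genes (15.3% and 35.4%). The part of TSS number in the count was not tested.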

How the data were processed

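Peak lists from ChIP-seq of Ets21C-eGFP in 3 replicates of whole white prepupae were used. The peak signal values are those the authors deposited (column 7 of each list), on a scale of their own per list. Replicate and pooled lists come, per the deposited sample notes, from alignments against a control alignment, and the optimal list from them by the irreproducible discovery rate. Aligner, caller and thresholds: not given in the sources used here. Lists on dm6 were used, and those on dm3 were not.

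Summits were placed on the 6 main arms against Ensembl release 115 (95 members, 104 TSS), and a gene counted when a summit lay within 500 bp or 5 kb of any of its TSS. Promoter sequence was read from the Release 6 RefSeq genome, and no protein sequence was used. Heights are signals divided by the median of the top 4505 peaks of the replicate. The differences between members and others were tested over replicates by an exact two-sided sign-flip test. Exact (Clopper-Pearson) 95% intervals, and limits from 3 counts at a count of 0, cover counting error only. No test over genes was made. Python 3.11.15, pandas 2.3.3, numpy 2.4.6 and scipy 1.17.1 were used, and the scoring, checked on simulated data, found all 200 planted summits.

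The members, gene lists and words were chosen with earlier results of these data known. Genes were named by rule: members with a promoter peak in the optimal or a top list, the 10 with the highest pooled promoter peak (the other 2 were added), those with the highest optimal summits within 5 kb, the 3 farthest from one, clusters of 4 or more, and in each other list the 4 highest and the first 2 without a peak. Other genes were named after their values were seen, among them Cpr73D, Tb, yellow-e3, ken, the neighbours of peaks, the remaining members near an optimal summit and the pairs of repeated sequence. Of 22 tanning genes, AANAT1 had no match. Alternatives covered windows, peak intervals, list length, background, cluster distance and each replicate left out.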

Additional observations from a re-analysis of the deposited data

How the results depend on the processing

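Differences below are the share of members minus that of the others, in percentage points. At promoters the optimal list gave -15.3, with a range of -10.9 to -5.98 with each replicate left out, -41.5 among genes with a pooled promoter peak, and -5.26 against other TATA-bearing genes, a background chosen after seeing the data. Windows of 250 and 1000 bp, peak intervals, the upper part of the list, others with 1 TSS and the removal of 6 members of repeated sequence moved it by less than the SD between replicates (6.06). Where the members' count is fixed at 0, as in subsets of the list or of the members, only the background could move, so these values say nothing of stability. Within 5 kb the value was -17.5 (-17.9 to -2.84 with a replicate left out), and -1.72 against TATA-bearing genes. The other 11 settings moved it by less than 15.4, the SD between replicates, which is wide. In the replicate top lists every setting kept the sign (-18.1 to -12.6 with a replicate left out), as did every setting for pooled promoter peaks. Clustered minus single genes gave -3.08, and the sign reversed within 2 kb (4.36); with each replicate left out the range was -5.64 to 6.92, the highest without replicate 3. The cause of these changes was not tested. The share of weak summits at members was the same with all pooled peaks outside the optimal list, 12 of 22579. No paired analysis was possible because all samples are of 1 group. Peak lists without read counts limit what a missing peak shows.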
